A study of Mus musculus with 8 samples.

Results

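Posterior trunks of mouse embryos homozygous for a Prtg knockout allele (KO, 3 libraries) were compared with those of wild-type embryos (WT, 2 libraries), across all genes. These were the raw count columns KO 1-3, KO 2-2, KO 2-3, WT 1-2 and WT 2-1, that is 5 of the 8 samples of the series. The other 3 are heterozygous embryos (Het) and enter here only to estimate the spread between libraries. All embryos were C57BL/6 mice of embryonic day 9.5 from crosses of heterozygous parents, and poly(A) RNA came from the tissue behind the boundary of somites 12 and 13. The sources used here name neither the deleted part of Prtg nor the litters, and nothing states that each library is a separate embryo, and the p-values below reflect no more than how far these libraries vary. Of 55573 genes in the table, 16262 passed the filter on low counts and were tested. Gene levels are CPM, read counts per 1e6 counted reads, and differences are log2 values, KO minus WT, with their standard error (SE).

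Protogenin, the product of Prtg, is a transmembrane receptor of the immunoglobulin superfamily, of the same family as neogenin and Dcc. Along the vertebrate body, Hox genes are switched on in the order in which they lie in their clusters, so that the last groups mark the lumbar, sacral and tail levels. The switch from making trunk to making tail depends on GDF11, a TGF-beta family ligand that acts through activin receptors and SMAD2 and SMAD3. The study asks how loss of protogenin bears on this switch and on GDF11 signalling.

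Total counts of the 5 libraries ran from 17023441 to 17511964. The tissue label fitted its markers: all 8 posterior trunk and tailbud markers, among them T, Tbx6 and Cdx2, were detected, with summed levels of 412 to 439 FPKM (reads per kilobase of exon and 1e6 counted reads) in KO and 400 to 435 FPKM in WT, while the 4 head and brain markers summed to at most 0.42 FPKM in KO and 0.36 FPKM in WT. KO 1-3 stood apart from the other KO libraries. Its counts differed from theirs with a variance 21.5 and 24.6 times that of counting, against 8.09 for KO 2-2 with KO 2-3 and 8.28 for WT 1-2 with WT 2-1. At least 2-fold differences separated it from KO 2-2 at 123 genes and from KO 2-3 at 128 genes, of 11098 genes at 5 CPM or more in WT, against 26 genes between KO 2-2 and KO 2-3 and 39 between WT 1-2 and WT 2-1. KO 1-3 and WT 1-2 also shared high Xist and almost no Y-linked RNA, whereas KO 2-2, KO 2-3 and WT 2-1 had Y-linked RNA. Among these 5 libraries, embryo sex and the first number of the column name, called the column set below, cannot be told apart. Both KO 1-3 and each WT library were therefore left out in turn, and results are given with and without them where they moved.

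Prtg RNA was lower in KO libraries but still present. It had 268, 254 and 237 CPM in KO 1-3, KO 2-2 and KO 2-3, against 317 and 386 CPM in WT 1-2 and WT 2-1. All KO libraries lay below both WT libraries, with a difference of -0.47 ± 0.10 that did not pass the threshold (edgeR adjusted p = 0.148). Among the alternatives described below, it passed the threshold with DESeq2 (-0.48) and in edgeR with no filter on low counts (-0.48). Counts over the whole gene check the genotype labels only weakly, because the deleted part is not known. Within 5 Mb of Prtg on chromosome 9, 61 other genes were tested and 0 passed the adjusted threshold in edgeR, while 4 higher and 7 lower had an unadjusted p below 0.05, that is 18.0% of them beside 7.19% of all genes. Mns1, which encodes a protein of cilia and sperm tails and lies 0.345 Mb from Prtg, had 38.2, 47.5 and 46.5 CPM in KO and 66.2 and 72.7 CPM in WT (-0.66 ± 0.10, edgeR adjusted p = 0.0554). Tex9, its neighbour, had 11.0, 13.1 and 13.3 CPM in KO and 20.5 and 19.6 CPM in WT (-0.69 ± 0.13, edgeR adjusted p = 0.105). Pygo1, a WNT coactivator 0.008 Mb from Prtg, had 25.0, 26.3 and 23.5 CPM in KO and 17.9 CPM in each WT library (0.48 ± 0.11, edgeR adjusted p = 0.256). These neighbours were singled out after their values were seen, and any part of the altered locus in their levels was not tested.

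At a Benjamini-Hochberg adjusted p below 0.05 in edgeR's quasi-likelihood test, 6 genes fell in KO (0.0369% of those tested) and 0 rose (0.0%). They were Fst, Pmepa1, Spock2, Hoxa11, Hoxc11 and Spaca6. At an unadjusted p below 0.05, 621 genes were higher (3.82%) and 549 lower (3.38%). All KO libraries lay above both WT libraries at 1824 genes (11.2%) and below both at 1708 genes (10.5%). DESeq2, the other count test, called 25 genes higher (0.157%) and 66 lower (0.414%), including all 6. With column set as a term, edgeR called 3 higher (0.0184%) and 16 lower (0.0984%), again including all 6. Fitted on the KO and WT libraries alone, edgeR called 0 higher of 15945 genes and 1 lower (0.00627%), Fst, with 789 genes at an unadjusted p below 0.05, and the other 5 missed the threshold. In such bulk tissue, fewer cells of a type and less RNA per cell cannot be told apart.

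Fst encodes follistatin, a secreted protein that binds activins and GDF11 and keeps them from their receptors. It had 5.24, 6.50 and 5.45 CPM in the KO libraries, against 22.5 and 20.1 CPM in the WT libraries, a 3.71-fold higher mean in WT. The KO values lay close together and far below WT, KO 1-3 included (-1.89 ± 0.13, edgeR adjusted p = 3.17e-04). Pmepa1, a membrane protein induced by TGF-beta that binds SMAD2 and SMAD3 and dampens their signal, had 0.707, 0.878 and 0.976 CPM in KO and 4.73 and 4.15 CPM in WT. Its KO counts were 12, 15 and 17 reads, so that counting error is wide, and the groups did not overlap (-2.37 ± 0.24, edgeR adjusted p = 0.00563). Spock2, which encodes a secreted proteoglycan of the testican family, had 17.0, 17.5 and 19.1 CPM in KO and 43.4 and 36.0 CPM in WT (-1.15 ± 0.11, edgeR adjusted p = 0.00312). Spaca6, a gene known for its role in sperm-egg fusion, had 6.01, 9.01 and 9.36 CPM in KO and 25.9 and 27.9 CPM in WT (-1.72 ± 0.19, edgeR adjusted p = 0.00587).

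**Figure D1:**
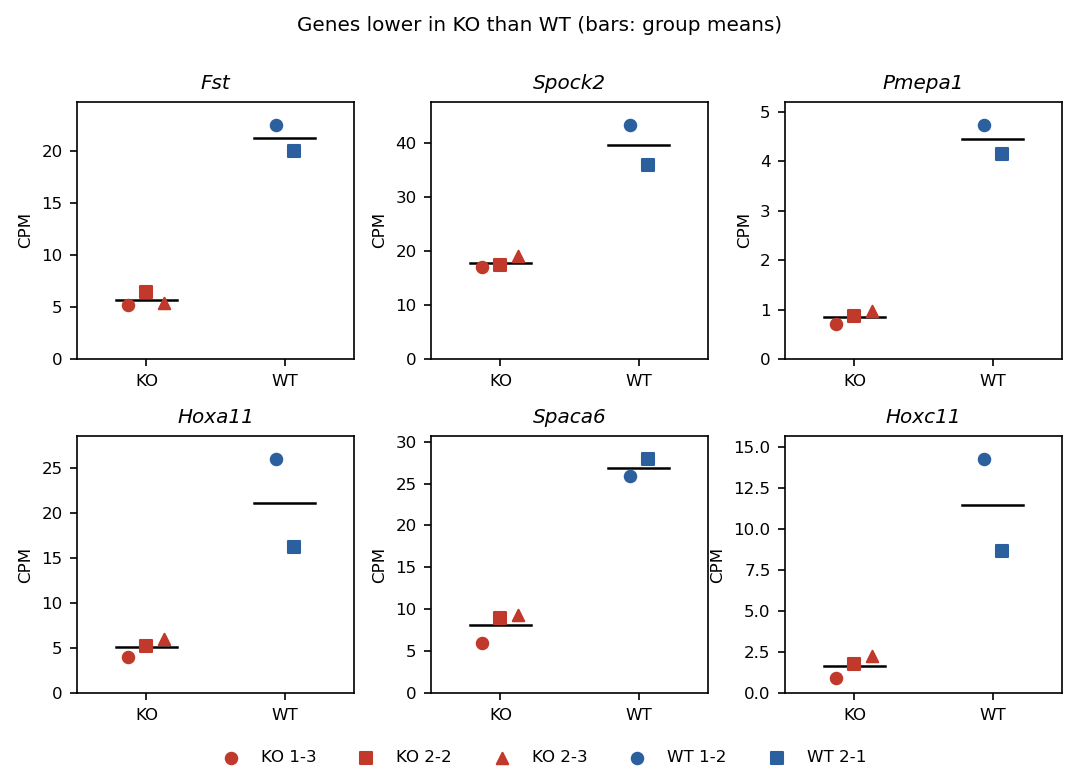
Levels in CPM (y axes, linear from 0) of the 6 genes that fell, for each KO library (red, left) and each WT library (blue, right), with group means as bars. In every panel all 3 KO libraries lie below both WT libraries, as for Fst at 5.24 to 6.50 CPM in KO and 20.1 to 22.5 CPM in WT.

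Spaca6 (chromosome 17, 17827158 to 17843009, plus strand, GRCm38) also spans a cluster of microRNAs on its own strand, which is why their sequences are shown; poly(A) counts of the gene do not measure the mature microRNAs. The 5′ arms follow, from RefSeq on GRCm38.p6, with the seed (bases 2 to 8) in capitals, and no seed is shared among the 3.
mmu-miR-99b-5p: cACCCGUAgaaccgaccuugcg
mmu-let-7e-5p: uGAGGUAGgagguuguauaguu
mmu-miR-125a-5p: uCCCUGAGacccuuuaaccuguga

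Promoter sequences from 250 bases before to 50 bases after the start were held for 3 of the 6 genes (RefSeq, GRCm38.p6), and they were searched for CAGAC on either strand, that is CAGAC or GTCTG, the short core that SMAD proteins are known to bind. Spock2 held 2 copies, in capitals below, and Hoxa11 and Spaca6 held 0. For Spaca6 the RefSeq window (chr17:17830725-17831024) lies inside the gene as the deposited table bounds it and holds miR-125a, so it is not the stretch around that gene's start in the table. Of all 32851 promoters of this length, 49.6% held at least 1 copy, so the letters alone set none of these genes apart. The promoter of Spock2 (chr10:60106007-60106306, plus strand) is shown as the one with copies, and that of Hoxa11 (chr6:52245761-52246060, minus strand) beside it.
Spock2: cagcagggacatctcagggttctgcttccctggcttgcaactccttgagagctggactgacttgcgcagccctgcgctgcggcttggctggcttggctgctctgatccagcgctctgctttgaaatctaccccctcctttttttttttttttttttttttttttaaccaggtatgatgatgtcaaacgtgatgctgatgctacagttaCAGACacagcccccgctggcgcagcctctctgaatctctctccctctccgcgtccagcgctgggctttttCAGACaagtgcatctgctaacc
Hoxa11: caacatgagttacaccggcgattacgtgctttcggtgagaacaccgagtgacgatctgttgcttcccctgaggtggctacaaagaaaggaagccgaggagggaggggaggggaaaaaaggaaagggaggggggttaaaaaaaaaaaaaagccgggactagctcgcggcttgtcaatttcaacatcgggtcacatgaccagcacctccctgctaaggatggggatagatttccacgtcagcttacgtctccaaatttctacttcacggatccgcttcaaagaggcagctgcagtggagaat

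The Hox genes divided by paralogue group. All 10 tested genes of groups 10 to 13 were lower in KO, with a list median of -1.46 beside 0.01 over all genes, and 9 of them had an unadjusted p below 0.05. Hoxa11 and Hoxc11 of the called genes belong here. Hoxa11 fell to 4.01, 5.27 and 6.03 CPM in KO, against 26.0 and 16.2 CPM in WT (-2.05 ± 0.22, edgeR adjusted p = 0.00587). Hoxc11 fell to 0.943, 1.81 and 2.30 CPM in KO, against 14.2 and 8.65 CPM in WT (-2.76 ± 0.33, edgeR adjusted p = 0.0125). WT 1-2 was the higher WT library for both, and KO 1-3 the lowest KO library. Hoxa11os, the antisense transcript that overlaps Hoxa11 and was looked up after its values were seen, had 2.95, 6.09 and 6.66 CPM in KO and 25.3 and 12.6 CPM in WT. The library kit as labelled does not mark strand and the counting setting is not stated, so reads of this pair may be exchanged between them.

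The other members of groups 10 to 13 had lower values without passing the threshold. Hoxd11 had 3.06, 7.61 and 9.70 CPM in KO and 53.7 and 25.6 CPM in WT (-2.54 ± 0.39, edgeR adjusted p = 0.0554). Hoxa10 had 26.2, 37.8 and 42.8 CPM in KO and 65.7 and 63.0 CPM in WT (-0.85 ± 0.15, edgeR adjusted p = 0.0871). Hoxd10 had 6.54, 13.2 and 12.5 CPM in KO and 32.8 and 23.4 CPM in WT (-1.38 ± 0.24, edgeR adjusted p = 0.0897). In each of these, KO 1-3 had the lowest level of all 5 libraries. Hoxc10, with the highest level per length of the list (13.4, 35.1 and 40.4 FPKM in KO, 90.9 and 79.2 FPKM in WT), had its lowest level in KO 1-3 as well (-1.51 ± 0.30, edgeR adjusted p = 0.139). Without KO 1-3, Hoxc10 fell by 1.17 (edgeR adjusted p = 1.07e-04), and Hoxa10, Hoxd10 and Hoxd11 passed the threshold as well, making 6 called members, while the list median was -1.43. DESeq2, on all libraries, called 7 members lower. Hoxd12 and Hoxc13 were at or under 2.80 CPM in all 5 libraries, Hoxd13 had a difference of -1.40 and Hoxa13 of -0.98.

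Earlier Hox groups did not share that direction. In groups 5 to 9, 8 of 15 genes were above 0 and 7 below, and the median was 0.01. At an unadjusted p below 0.05, 4 were higher and 2 lower (40.0%, beside 7.19% of all genes). DESeq2 called 1 of the 15 higher. Hoxb9 had 402, 362 and 342 CPM in KO and 249 and 283 CPM in WT (0.47 ± 0.08, edgeR adjusted p = 0.0961). Hoxc9, next to Hoxc10 in its cluster, had 43.4, 42.7 and 48.4 CPM in KO and 52.4 and 54.3 CPM in WT (-0.25 ± 0.08, edgeR adjusted p = 0.584). Of 12 genes of groups 1 to 4, 2 were higher and 1 lower at an unadjusted p below 0.05 (25.0%). Their median was 0.13, and 0.02 without KO 1-3. The Cdx genes, which activate trunk Hox genes, had a median of 0.31 over 3 members, and 0.13 without KO 1-3.

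**Figure D2:**
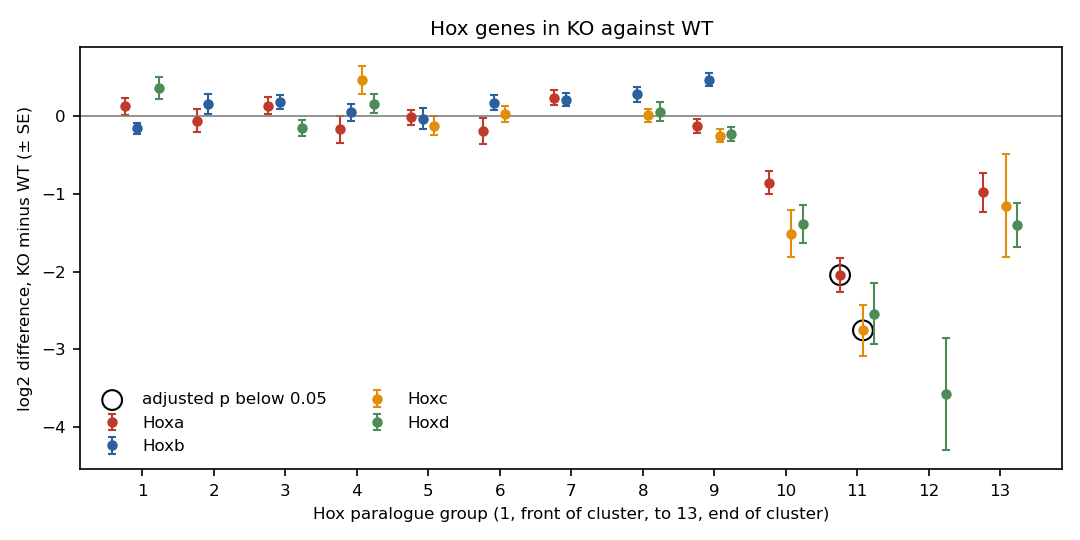
Log2 difference, KO minus WT, with SE bars (y axis) for each tested Hox gene by paralogue group (x axis), coloured by cluster, with genes below the adjusted p threshold circled. Up to group 9 values lie between -0.25 and 0.47, and all 10 genes of groups 10 to 13 lie below 0, with Hoxa11 and Hoxc11 circled.

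Outside Fst and Pmepa1, no listed gene of activin, GDF11 and Nodal signalling passed the adjusted threshold in edgeR with all libraries and the default filter. DESeq2 called 1 antagonist higher and 1 lower. In DESeq2, 1 of the SMADs and nuclear partners and 2 of the feedback inhibitors and targets were also lower. Among 7 ligands 1 was higher and 0 lower at an unadjusted p below 0.05 (14.3%), and among 7 receptors and coreceptors 0. Among 14 SMADs and nuclear partners 2 were higher and 3 lower (35.7%), beside 7.19% of all genes. Gdf11 itself had 70.8, 100 and 101 CPM in KO and 83.7 and 83.0 CPM in WT, its receptor Acvr2b had 75.3, 74.7 and 70.2 CPM in KO and 70.4 and 71.6 CPM in WT, and Smad2 had 82.2, 89.4 and 83.5 CPM in KO and 88.1 and 84.4 CPM in WT. These 3 were named for the study's question and in each the KO and WT values overlapped. Of 12 antagonists outside the cell, 2 were higher and 2 lower at an unadjusted p below 0.05 (33.3%), and Fst was called. Cer1, which encodes the Nodal and BMP antagonist cerberus, had 11.3, 17.8 and 16.8 CPM in KO and 7.47 and 7.08 CPM in WT (1.07 ± 0.20, edgeR adjusted p = 0.122), and it passed the threshold without KO 1-3 (1.25, edgeR adjusted p = 0.00403). Of 14 feedback inhibitors and targets of SMAD2 and SMAD3, 6 were lower and 0 higher at an unadjusted p below 0.05 (42.9%). Pmepa1 was the 1 called, and the list median was -0.24. Ski, Skil, Smad6 and Smad7 belong both to this list and to that of SMADs and nuclear partners. Ski and Skil are counted as lower in both, so the shares of these lists are not separate results. Skil, a corepressor that TGF-beta induces, had 41.2, 38.8 and 35.9 CPM in KO and 47.8 and 55.3 CPM in WT (-0.42 ± 0.09, edgeR adjusted p = 0.187). Its relative Ski had 172, 208 and 218 CPM in KO and 263 and 240 CPM in WT (-0.33 ± 0.09, edgeR adjusted p = 0.439).

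Among genes just short of the threshold, the 10 with the smallest p on the higher side had edgeR adjusted p-values of 0.0515 to 0.142. Nr6a1, an orphan nuclear receptor active in trunk formation, had 250, 242 and 214 CPM in KO and 130 and 166 CPM in WT (0.67 ± 0.11, edgeR adjusted p = 0.0626). Its list of trunk-stage regulators had 1 of 10 higher at an unadjusted p below 0.05, and Lin28a had 878, 835 and 859 CPM in KO and 665 and 825 CPM in WT. Mat2a, which makes the methyl donor S-adenosylmethionine, had 26.6, 43.1 and 36.8 CPM in KO and 14.1 and 8.07 CPM in WT (1.68 ± 0.25, edgeR adjusted p = 0.0554). Lrrn3, a neuronal leucine-rich repeat protein gene, had 11.1, 12.8 and 10.3 CPM in KO and 4.26 and 3.63 CPM in WT (1.53 ± 0.22, edgeR adjusted p = 0.0515). The others were Dact2, an antagonist in WNT and Nodal signalling (0.63 ± 0.10), the ubiquitin ligase gene Rnf213 (0.73 ± 0.12), the neuropeptide receptor gene Npbwr1 (1.22 ± 0.21), Hoxb9, the receptor phosphatase gene Ptprz1 (0.62 ± 0.11), Cer1, and Sema3a, a repulsive guidance cue (0.39 ± 0.08). In all 10 the groups did not overlap, which the choice required.

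Among the 10 of smallest p on the lower side were Notch4, Mns1, Tmem119, Hsd11b2, Hoxd11, Btg2, Mfap4, Eogt and Spsb1, with edgeR adjusted p-values of 0.0554 to 0.0561. Notch4, a Notch receptor of blood vessels, had 28.1, 24.2 and 27.9 CPM in KO and 41.2 and 40.2 CPM in WT (-0.61 ± 0.09). The 6 summed endothelial markers overlapped between groups beside it, at 57.4 to 69.0 FPKM in KO and 65.9 FPKM in both WT libraries. In the longer endothelial list, 4 of 21 genes were lower and 0 higher at an unadjusted p below 0.05. That is 19.05% of the list, beside 7.19% of all genes. Notch4 is among these 4 and was named for its small p, so the share is not separate from it. Btg2, an antiproliferative gene, had 26.9, 34.1 and 28.9 CPM in KO and 50.2 and 62.6 CPM in WT (-0.91 ± 0.14). Mfap4, a microfibril protein gene, had 12.5, 22.1 and 20.3 CPM in KO and 44.6 and 37.9 CPM in WT (-1.17 ± 0.19), and Eogt, which adds GlcNAc to EGF repeats, had 34.3, 43.0 and 42.9 CPM in KO and 60.9 and 61.6 CPM in WT (-0.61 ± 0.10). The glucocorticoid-inactivating enzyme gene Hsd11b2 had -0.46 ± 0.07, the SOCS-box gene Spsb1 -0.97 ± 0.16 and Tmem119 -0.74 ± 0.11. With column set as a term, Notch4, Mns1, Tmem119, Hsd11b2, Btg2, Mfap4, Eogt and Spsb1 passed the threshold, with edgeR adjusted p-values of 0.00249 for Btg2 to 0.0432 for Mfap4, and Hoxd11 did not (0.0592). In that fit Lrrn3 and Rnf213 of the higher genes passed it too (edgeR adjusted p = 0.0371 for both). Of 36 genes of the extracellular matrix other than collagens, 7 were lower and 2 higher at an unadjusted p below 0.05 (25.0%). Spock2 was called, and the median was -0.11.

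Leaving out KO 1-3 raised the calls to 6 higher (0.0372% of 16115 genes) and 22 lower (0.137%), among them all 6 of the fit with all libraries. The higher genes were Sema3a, Mat2a, Lrrn3, Cer1, Rnf213 and Lrig1, a brake on growth factor receptors. Lrig1 was the gene in which KO 1-3 went against the others, at 56.3 CPM, with 85.4 and 83.7 CPM in KO 2-2 and KO 2-3 and 62.4 and 62.3 CPM in WT (0.27 ± 0.14 with all libraries, 0.44 without KO 1-3, edgeR adjusted p = 0.0108). Besides Hox genes and genes above, the lower ones included Endod1, Gad1, which makes the transmitter GABA, Aph1b, a subunit of gamma-secretase, and Mmp2, a matrix protease. Aph1b had 4.48, 1.29 and 1.61 CPM in KO and 9.28 and 10.1 CPM in WT (-1.98 ± 0.41 with all libraries, -2.73 without KO 1-3, edgeR adjusted p = 0.00258). Of these 28 genes, 2 met the rule given below for KO 1-3, Hoxc10 and Lrig1. Lrig1 met it only because KO 1-3 alone gave the other sign, so its difference does not come from that library.

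**Figure D3:**
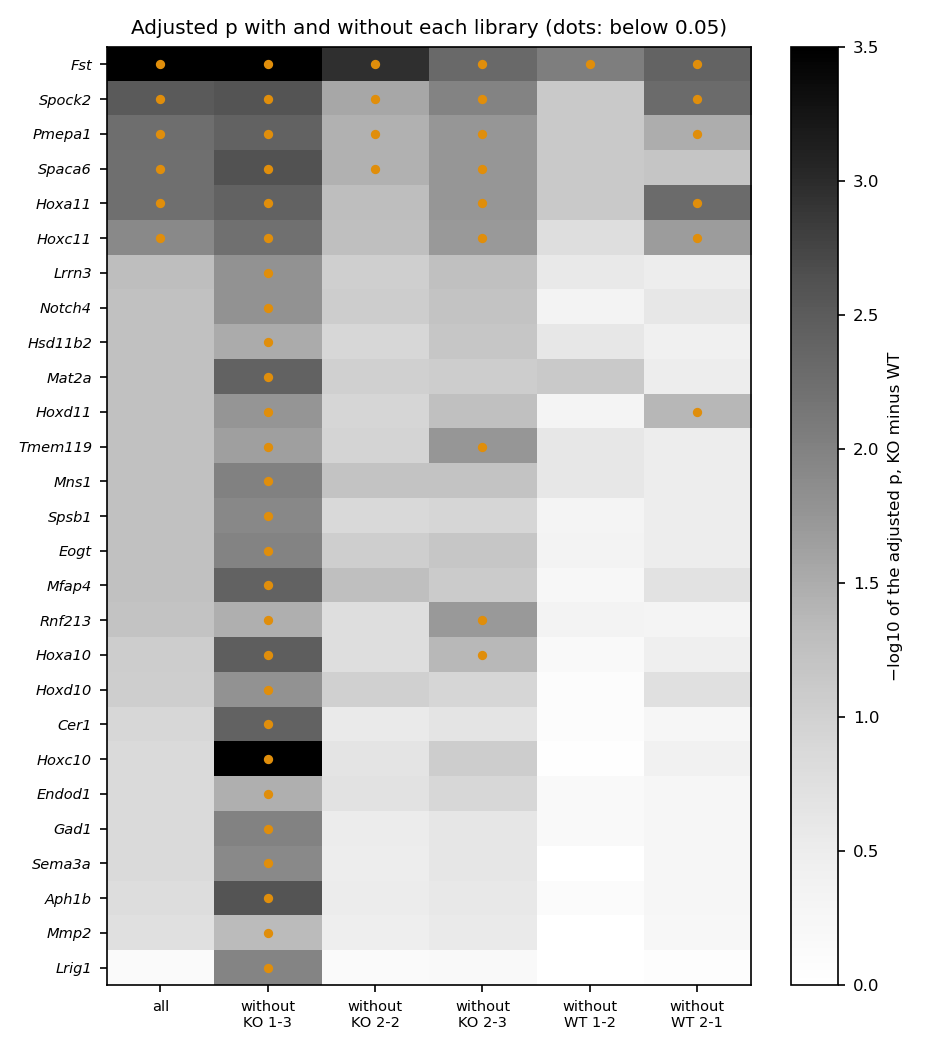
Adjusted p of KO minus WT (shade, as −log10, darker for smaller p) for genes (rows) called with or without KO 1-3, in the fit of all libraries and in fits without each KO or WT library (columns), with dots where the adjusted p is below 0.05. Fst has a dot in every column, and the column without WT 1-2 has a dot at Fst alone.

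The calls were also recomputed without each WT library. Without WT 1-2 edgeR called Fst alone, and the adjusted p was 0.0779 for Hoxa11, Pmepa1, Spock2 and Spaca6 and 0.170 for Hoxc11; the single WT library left is then assumed to vary like the other groups. Without WT 2-1, 6 genes were called, with 5 shared and Spaca6 lost. Without KO 2-2, Hoxa11 and Hoxc11 were lost. The sizes of the 6 differences moved less: over all fits that left out a library, the log2 value lay between -1.99 and -1.81 for Fst, between -2.48 and -2.25 for Pmepa1, between -1.28 and -1.01 for Spock2, between -1.84 and -1.55 for Spaca6, between -2.35 and -1.67 for Hoxa11 and between -3.08 and -2.36 for Hoxc11.

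A difference was counted as resting on a library where the value without it was less than 0.5 of the value from that library alone. Values of opposite sign also counted. Of the 1170 genes with an unadjusted p below 0.05, 383 (32.7%) rested on KO 1-3, 190 (16.2%) on WT 1-2, 60 (5.13%) on WT 2-1, 30 on KO 2-2 and 21 on KO 2-3. None of the 6 called genes did so. Among the genes of groups 10 to 13, Hoxc10 rested on KO 1-3, Hoxd12 on WT 1-2 and Hoxc13 on WT 2-1. A direct test of the difference between column sets, KO minus WT in set 1 minus that in set 2, called 276 genes higher (1.7%) and 166 lower (1.02%) in edgeR. This fit had 2 residual degrees of freedom and set 1 held 1 KO and 1 WT library, so it says how KO 1-3 differs and does not separate sex, column set and that library.

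Genes of hypoxia and glycolysis, which cells use to live on little oxygen, turned on KO 1-3. All 29 tested members were above 0 with a median of 0.48. At an unadjusted p below 0.05 were 19 of them (65.5%, beside 7.19% of all genes), with 0 called. The list level of a library is given as log2(CPM + 1) after subtracting the WT average of each gene, taking the median gene. It was 0.97 in KO 1-3 but 0.16 and 0.13 in KO 2-2 and KO 2-3, and it was -0.08 and 0.08 in WT 1-2 and WT 2-1. Without KO 1-3 the median was 0.15, and 26 members differed between the column sets. Pfkp, a phosphofructokinase gene, had 219 CPM in KO 1-3, 21.1 and 19.9 CPM in the other KO libraries and 17.1 and 19.3 CPM in WT. Ddit4, a stress-induced inhibitor of mTORC1, had 427 CPM in KO 1-3, 77.2 and 61.4 CPM in the other KO libraries and 39.1 and 44.2 CPM in WT. The glucose transporter gene Slc2a1 had 1259 CPM in KO 1-3, 743 and 738 CPM in the other KO libraries and 618 and 614 CPM in WT. For Ddit4 and Slc2a1 the other KO libraries were also above both WT libraries, with differences without KO 1-3 of 0.73 and 0.27 (edgeR adjusted p = 0.283 and 0.104).

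Other genes were high in KO 1-3 alone. Ndufa4l2, a mitochondrial protein gene induced by hypoxia, had 29.0 CPM there, 2.28 and 2.70 CPM in the other KO libraries and 1.34 and 3.16 CPM in WT. The metal-binding protein gene Mt1 had 81.5 CPM there, 7.96 and 9.70 CPM in the other KO libraries and 10.2 and 5.15 CPM in WT, and Ppp1r3c, a glycogen-targeting subunit, had 24.8 CPM there, 2.69 and 2.12 CPM in the other KO libraries and 1.11 and 2.22 CPM in WT. The transcription factor gene Bhlhe41 and the early response gene Ier3 had 12.3 and 22.2 CPM there and at most 0.936 CPM in the other KO libraries and 1.70 CPM in WT. Cholesterol synthesis followed the same library, with a list level of 0.93 in KO 1-3, 0.15 and -0.20 in the other KO libraries and -0.07 and 0.07 in WT. Its median of 0.37 was 0.00 without KO 1-3, 20 of 24 members differed between the column sets, and Tm7sf2, a sterol reductase gene, had 51.3, 26.7 and 18.7 CPM in KO and 17.2 and 19.4 CPM in WT. Genes of the mitochondrial genome went the other way, with a list level of -0.88 in KO 1-3, -0.05 and -0.10 in the other KO libraries and -0.06 and 0.06 in WT. mt-Nd4 had 357 CPM in KO 1-3, 642 and 683 CPM in the other KO libraries and 735 and 790 CPM in WT, and mt-Cytb had 1068 CPM in KO 1-3, 1780 and 1871 CPM in the other KO libraries and 1928 and 2093 CPM in WT. Whether these levels bear on the Hox genes of groups 10 and 11, in which KO 1-3 was the lowest library, was not tested.

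**Figure D4:**
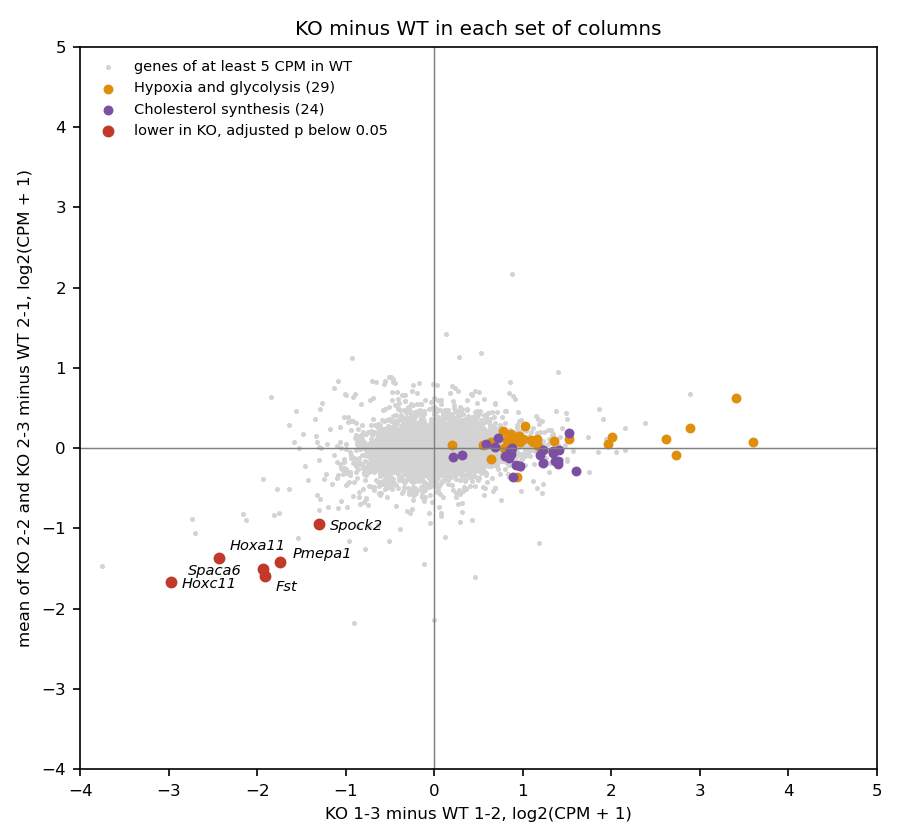
Difference of KO 1-3 from WT 1-2 (x axis) against that of the mean of KO 2-2 and KO 2-3 from WT 2-1 (y axis), both on the log2(CPM + 1) scale, for genes of at least 5 CPM in WT (grey), with hypoxia and glycolysis genes in orange, cholesterol synthesis genes in purple and the 6 called genes in red. The orange and purple points spread along the x axis and stay closer to 0 on the y axis, and the 6 red points lie below 0 on both.

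KO and WT were also compared within a column set, at differences of at least 1 on the log2(CPM + 1) scale, which understates the change of low genes. Of 16262 genes tested, 252 were higher and 118 lower in set 1, but 16 higher and 24 lower in set 2. Set 1 is KO 1-3 against WT 1-2, whereas set 2 is the mean of KO 2-2 and KO 2-3 against WT 2-1. A mean varies less than a single library, so these counts are not measured alike. At that size of difference both sets shared 1 higher gene, Lrrn3, and 9 lower genes. The lower ones were Hoxc11, Fst, Ebf2, Hoxc10, Hoxa11, Pmepa1, Hoxd11, Tg and Spaca6. Ebf2, a transcription factor gene, had 2.24, 4.80 and 2.81 CPM in KO and 8.41 and 9.24 CPM in WT, and Tg, the thyroglobulin gene, had 0.825, 1.35 and 0.861 CPM in KO and 3.21 and 3.45 CPM in WT.

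Tissue programmes of the posterior trunk held no called gene with all libraries other than those above. Hindlimb and lateral plate genes had 4 lower and 2 higher of 21 at an unadjusted p below 0.05 (28.6%, beside 7.19% of all genes). Their median was -0.04. Tbx4, which starts hindlimb outgrowth, had 18.3, 17.8 and 18.5 CPM in KO and 39.1 and 29.2 CPM in WT (-0.91 ± 0.19, edgeR adjusted p = 0.156), and Pitx1, which sets hindlimb identity, had 85.8, 95.6 and 108 CPM in KO and 128 and 139 CPM in WT (-0.47 ± 0.09, edgeR adjusted p = 0.122). Isl1, a gene of hindlimb precursors and motor neurons, had 18.5, 17.6 and 19.1 CPM in KO and 31.2 and 25.8 CPM in WT. KO libraries lay below WT in each of these 3, KO 1-3 with the others. Fgf10, a limb bud growth factor gene, had 13.1, 8.60 and 11.1 CPM in KO and 5.37 and 7.13 CPM in WT. DESeq2 called 3 genes of the list lower. Differentiating neuron genes had 4 lower and 0 higher of 16 by the same measure (25.0%). Their median was -0.45, and it was -0.54 without KO 1-3, -0.23 without WT 1-2 and -0.69 without WT 2-1. Neural tube progenitor genes had 6 higher and 1 lower of 23 (30.4%) with a median of 0.06. Irx3 had 109, 98.9 and 103 CPM in KO and 83.4 and 84.4 CPM in WT, and Msx1, a roof plate and limb gene, had 142, 120 and 140 CPM in KO and 95.5 and 99.0 CPM in WT. Summed neural tube markers were 46.0 to 47.0 FPKM in KO and 38.6 to 41.6 FPKM in WT. Irx3 made up most of the sum, at 35.7 to 39.4 FPKM in KO and 30.3 and 30.5 FPKM in WT. Of the other markers, Pax6 was higher in all KO libraries, and Sox1 and Olig2 overlapped between the groups.

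Some tissue lists again turned on KO 1-3. Somite genes had a list level of -0.47 in KO 1-3, 0.14 and -0.03 in the other KO libraries and 0.10 and -0.10 in WT, and 5 of 21 members differed between the column sets. The summed somite markers were 86.3 FPKM in KO 1-3, 141 and 138 FPKM in the other KO libraries and 123 and 120 FPKM in WT. Twist1, a mesenchymal transcription factor gene, had 63.9 CPM in KO 1-3, 86.7 and 89.5 CPM in the other KO libraries and 108 and 87.4 CPM in WT, and Foxd1 had 18.0 CPM in KO 1-3, 28.7 and 28.4 CPM in the other KO libraries and 38.9 and 32.7 CPM in WT. Surface ectoderm and epithelium genes had a list level of 0.42 in KO 1-3, 0.01 and 0.15 in the other KO libraries and -0.02 and 0.02 in WT, and their summed markers were 357 FPKM in KO 1-3, 261 and 288 FPKM in the other KO libraries and 235 and 267 FPKM in WT. Within that list Grhl3, a regulator of neural tube closure and epidermis, had 20.1, 16.3 and 16.7 CPM in KO and 10.2 and 10.5 CPM in WT (0.77 ± 0.17, edgeR adjusted p = 0.204), so that it was high in all KO libraries. Cdx2 had 223 CPM in KO 1-3, 149 and 169 CPM in the other KO libraries and 119 and 172 CPM in WT. Wt1, of the intermediate mesoderm, had 3.12, 5.03 and 6.31 CPM in KO and 13.1 and 8.48 CPM in WT. It was thus lowest in KO 1-3, but all KO libraries lay below both WT libraries. Erythroid markers varied within both groups, at 5198 to 8387 summed FPKM in KO and 3736 to 7508 FPKM in WT, with the higher value of each group in KO 2-2 and WT 1-2.

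The medians of the lists of signalling pathways were -0.01 for 34 WNT genes, 0.07 for 24 FGF genes, 0.00 for 27 BMP genes, -0.05 for 27 Notch and Hedgehog genes and -0.02 for 18 retinoic acid genes, with 0 called in each. Their members went both ways: at an unadjusted p below 0.05, 6 BMP genes were higher and 3 lower, 5 FGF genes higher and 2 lower, 2 Notch and Hedgehog genes higher and 5 lower, 3 WNT genes higher and 2 lower, and 1 retinoic acid gene higher and 1 lower. These were 33.3% of BMP, 29.2% of FGF, 25.9% of Notch and Hedgehog, 14.7% of WNT and 11.1% of retinoic acid genes, beside 7.19% of all genes. Nkd2, a WNT inhibitor gene, had 20.4, 38.7 and 32.9 CPM in KO and 65.9 and 51.1 CPM in WT and rested on KO 1-3. A further list of 16 genes held Prtg, related receptors, Unc5 receptors, netrins, Rgma, Rgmb, Hjv and Draxin, and is thus not a receptor family alone. Of these 16, 3 (18.8%) were lower and 0 higher at an unadjusted p below 0.05, with a median of -0.18. Among the 3 were Prtg itself and the netrin receptor gene Unc5b. Unc5b had 158, 153 and 167 CPM in KO and 184 and 204 CPM in WT. Genes of DNA replication (median 0.01), mitosis (-0.02), apoptosis (0.04) and oxidative phosphorylation in the nucleus (0.00) had 0 called, and p53 targets had a median of 0.12. Of 79 cytosolic ribosomal protein genes, 66 were above 0, and 14 higher and 2 lower had an unadjusted p below 0.05 (20.3%). The median was 0.12 with KO 1-3 and 0.08 without it. Hotair, a long noncoding RNA of the late Hoxc cluster, had 0, 0 and 0.0574 CPM in KO and 1.28 and 0.702 CPM in WT.

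**Figure D5:**
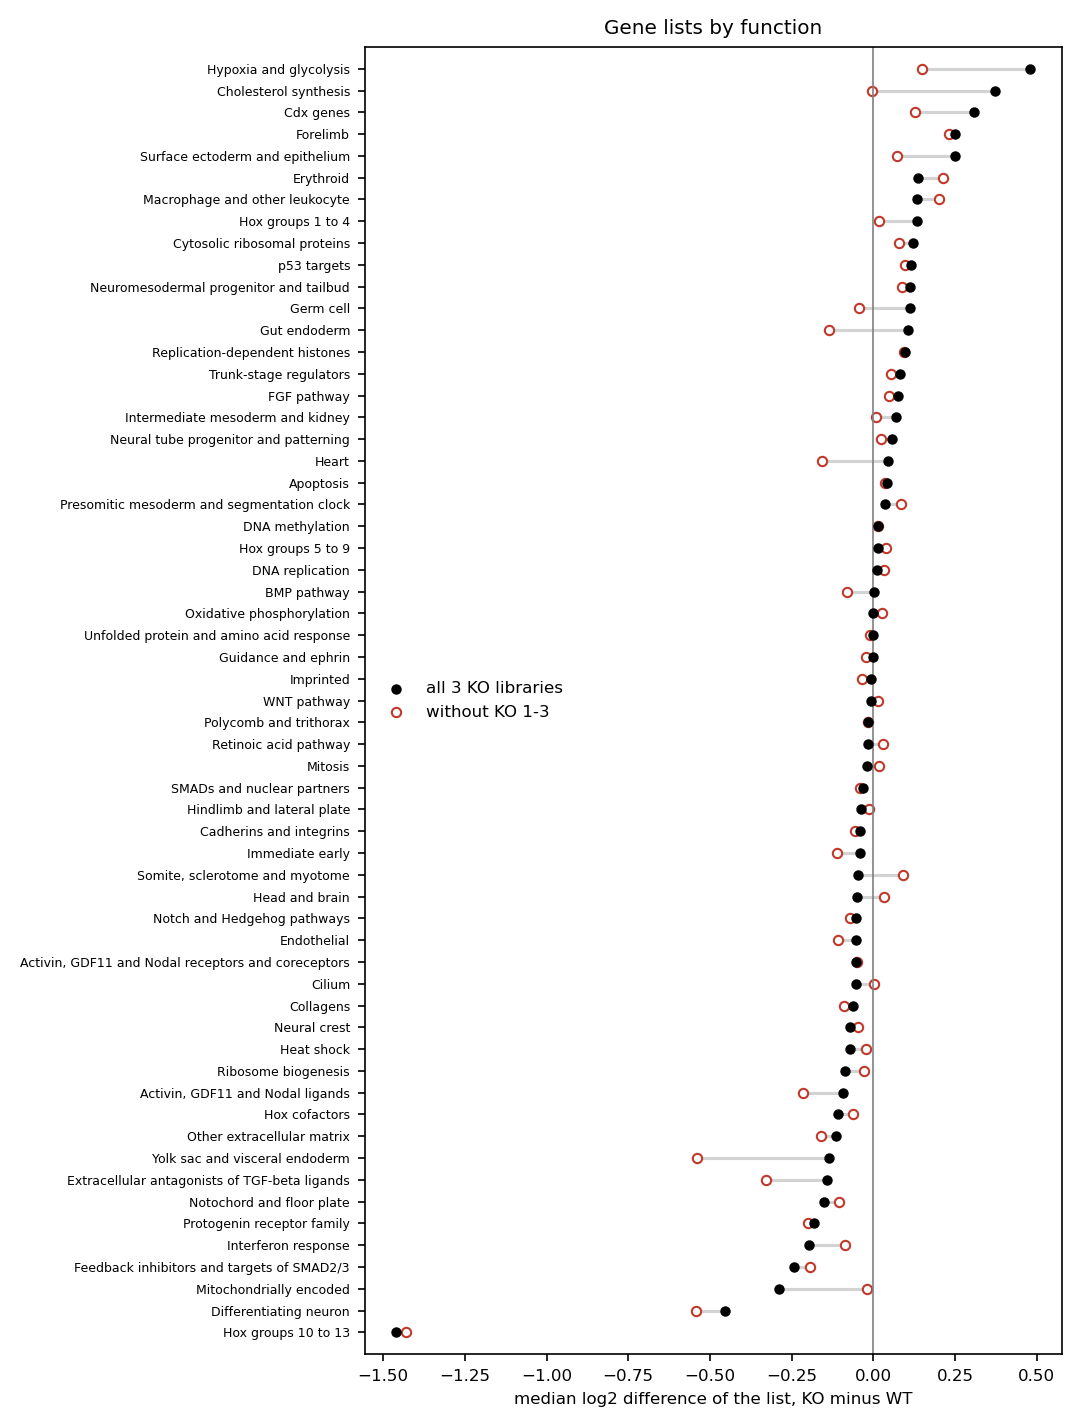
Median log2 difference, KO minus WT (x axis), of each gene list (rows) with all 3 KO libraries (black) and without KO 1-3 (open red). Hox groups 10 to 13 lie at -1.46 and -1.43, whereas hypoxia and glycolysis, cholesterol synthesis and mitochondrially encoded genes move towards 0 without KO 1-3.

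The WT libraries differed from each other at genes where the KO libraries were alike. Postn, which encodes periostin, had 53.9, 46.0 and 47.6 CPM in KO and 67.3 and 33.0 CPM in WT. Tmod1, a red cell and muscle actin-capping gene, had 3.77, 5.44 and 5.28 CPM in KO and 8.12 and 1.93 CPM in WT. The kinase gene Nek2 had 0.471, 0.936 and 0.918 CPM in KO and 4.44 and 0.877 CPM in WT, and Dpep1, a dipeptidase gene, had 0.530, 0.410 and 0.344 CPM in KO and 2.28 and 0.585 CPM in WT. Both rested on WT 1-2. Txnrd2, a mitochondrial thioredoxin reductase gene, had 1.30, 1.35 and 1.49 CPM in KO and 1.58 and 6.14 CPM in WT and rested on WT 2-1, and Lhx5, a neuronal transcription factor gene at 0.471, 0.468 and 0.344 CPM in KO and 1.40 and 3.22 CPM in WT, did so too.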

How the data were processed

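RNA-seq libraries of 3 KO, 2 WT and 3 Het posterior trunks were used. For each library the table that the authors deposited holds raw counts of reads per gene, as whole numbers. Its 8 FPKM columns were left unused, and FPKM was computed here from those counts, the exonic lengths and the column totals. Tools named by the submitters' processing notes are HISAT2 2.0.1, HTSeq 0.6.1 and cutadapt 1.9.1, with the build GRCm38. Numbers in the column names occur in no sample label, and a column was therefore tied to its genotype only.

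Counts were tested with edgeR 4.0.16 (R 4.3.3): TMM scaling, the default filter on low counts and the quasi-likelihood test in 1 fit of all 8 libraries, KO minus WT, two-sided, Benjamini-Hochberg adjusted over 16262 genes. CPM was computed from counts after TMM scaling. Where a symbol occurs more than once, the row with the highest total was used. Alternatives were DESeq2 1.42.0, its size factors, limma 3.58.1, other filters, the 5 libraries alone, Y-linked level or column set as a term, and leaving out each library; the test between column sets was added after seeing the data. The tests were tested on simulated data. No libraries agreed within sampling noise, and counting errors ignore PCR copies.

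The members and the 60 gene lists were chosen with earlier results of these data known. Named genes were Prtg; called genes, with and without KO 1-3; up to 10 per direction next in p, without overlap and at 5 CPM or more; up to 2 per list; and, with no test, up to 6 per direction at which KO 1-3, or a WT library, stood apart. Of these, the text gives those of each function it describes, and 1 of them is not reported here.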

Additional observations from a re-analysis of the deposited data

Results flagged for a closer look

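The KO minus WT difference of 27 genes named in the text differed between the column sets at an adjusted p below 0.05 in edgeR, 13 higher and 14 lower in set 1 (KO 1-3 and WT 1-2) than in set 2 (KO 2-2 and KO 2-3, and WT 2-1). Over all 16262 genes tested, 276 (1.7%) were higher and 166 (1.02%) lower in that test. Some of the 27 were named because KO 1-3 stood apart in them, or because they were called without it. For those, a difference between the sets was built into the choice, so the count of 27 is a description only. Values in brackets are the difference in set 1 minus that in set 2, on the log2 scale. Genes of low oxygen, stress and metabolism were higher in set 1, namely Pfkp (3.59), Ddit4 (2.80), Slc2a1 (0.76), Ppp1r3c (4.36), Mt1 (2.22), Ndufa4l2 (4.77), Bhlhe41 (5.52), Ier3 (5.11) and Tm7sf2 (1.35). The ephrin receptor gene Epha5 (1.24) was also higher, as were the caudal and early Hox genes Cdx4 (0.80), Cdx2 (1.01) and Hoxc4 (0.89). Late Hox genes were lower, namely Hoxa10 (-0.69), Hoxc10 (-1.68), Hoxd10 (-1.46) and Hoxd11 (-2.57), as were the mesoderm genes Foxd1 (-0.91), Twist1 (-0.76), Wt1 (-1.49), Col2a1 (-0.59) and Mfap4 (-0.998). The mitochondrial genes mt-Nd4 (-0.79) and mt-Cytb (-0.66) and the genes Mat2a (-1.39), Lrig1 (-0.59) and Nkd2 (-1.18) were lower too. Set 1 holds 1 KO library, KO 1-3, so its own state, sex and column set cannot be told apart here.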

How the results depend on the processing

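Under the alternatives, 0 of 1593 values of the 100 genes tested were counted as reversed. That count does not show that every sign held. Ier3 was higher in KO in set 1 (3.34) but lower in set 2 (-0.55) on the log2(CPM + 1) scale. Of the 1593 values, 152 passed the threshold that the main value missed. Another 13 missed the threshold that the main value passed, all for Pmepa1, Spock2, Hoxa11, Hoxc11 and Spaca6. Beside 0 higher and 6 lower genes, counts were 25 and 66 with DESeq2, 3 and 16 with the Y-linked level as a covariate, 3 and 16 with column set as a term, 2 and 6 with limma on log2(CPM + 1), and 100 and 105 with no filter on low counts; fitting only the KO and WT libraries left 0 and 1 (Fst). Counts stayed at 0 and 6 with DESeq2 size factors and a stricter filter. Leaving out 1 library gave 0 to 6 higher and 1 to 22 lower genes; the highest counts came without KO 1-3 and the lowest lower count without WT 1-2, and the cause was not tested. Of values for the medians of 59 lists, 862 moved by less than the spread between KO libraries and 82 by more. No paired analysis was possible because the column numbers match no replicate number in the labels; column set, the first of those numbers, entered as a term above. In simulated KO minus WT data of 15992 genes, 47.7% of 1.5-fold, 70.1% of 2-fold and 93.8% of 4-fold changes were recovered. Of the calls there, 5.44% were false. The simulated libraries varied independently around 1 mean per gene, with no sex or column-set effect and no library set apart like KO 1-3. These shares therefore do not give the power of the real comparison.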

Other observations

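Eno1b and Gm4735 separated all 8 libraries by column set, in each genotype. They were picked after their values were seen. Eno1b had 167 CPM in KO 1-3, 118 CPM in WT 1-2 and 110 CPM in Het 1-1, but 462 and 460 CPM in KO 2-2 and KO 2-3, 429 CPM in WT 2-1 and 420 and 436 CPM in Het 2-4 and Het 2-5. Gm4735 had 66.7 CPM in KO 1-3, 50.9 CPM in WT 1-2 and 49.2 CPM in Het 1-1, but 278 and 284 CPM in KO 2-2 and KO 2-3, 267 CPM in WT 2-1 and 258 and 270 CPM in Het 2-4 and Het 2-5. Het 2-4 shares high Xist (803 CPM) with the libraries of set 1 but has the high level of set 2 at both genes. Eno1b is a near-identical copy of Eno1, and how the counting split reads between copies is not given, so these levels are uncertain.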
